A study of Mus musculus with 8 samples.

Results

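The genes described here are the members of the tripartite motif (TRIM) family that the deposited expression table lists, together with Mid1, Mid2, Pml and Mefv, the 4 relatives whose symbols do not start with Trim. They were picked by symbol alone, and the rule found 45 genes on 46 rows, out of 11926 gene names on 11996 rows. The RNA came from peritoneal macrophages of C57BL/6 mice, drawn into the cavity with thioglycolate and kept on plastic for 24 h. The wild-type groups and the Ptpn1-/- groups, which lack the tyrosine phosphatase PTP1B, each received either mock treatment or the cytokine IL-10 for 4 h, at a dose of 100 ng/ml. The labels list 2 samples in each of the 4 groups and name no other allele, age or sex, nor whether the mock and IL-10 cells came from the same mice.

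TRIM proteins are mostly ubiquitin ligases. A RING domain takes ubiquitin from an E2 enzyme, B-box and coiled-coil domains assemble the protein into oligomers, and a variable C-terminal domain, often a PRY-SPRY domain, selects the substrate. Macrophages use many of them in the response to viruses and bacteria, and interferons induce a subset. MID1 is set apart by a COS box that holds it on microtubules, where it marks the catalytic subunit of phosphatase PP2A for degradation. IL-10, acting through its receptor, JAK1 and STAT3, restrains inflammatory gene expression, and PTP1B removes phosphate from JAK kinases.

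The table holds 1 authors' value per gene and group, so no spread between samples is known, no difference below was tested, and a fold means a ratio of 2 such values. Values are given in the table's own units of normalised signal, in which every group sums to 26705598. A log2 ratio was taken after 26.7 units, 1 ppm of that total, had been added to both values, which understates the change of low genes. All 45 genes had a mean signal of at least that amount, as did 11400 rows of the table. A gene was counted as higher or lower when the ratio reached 2-fold.

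In wild-type mock cells, 11 of the 45 genes stood above 1000 units and 7 below 100. No member passed 20000 units in any group. Per kilobase of the longest annotated transcript, Trim28, which encodes the corepressor KAP1, had the highest signal in these cells, at 949 units per kb. Trim35 followed at 706, Trim25 at 700.4, Mid1 at 654 and Trim8 at 563 units per kb. Trim30b was lowest at 3.03 units per kb and Mid2 next at 5.42 units per kb. The Trim30b row spans 1060 bases against 4287 in that transcript, so its place per kilobase depends on the length used. Its undivided 13 units were also the lowest value of any member. The Trim28 and Mid1 rows cover 21.6% and 2.72% of the annotated gene spans, so their places are uncertain too. Whether neighbours in this order differ beyond their spread cannot be said from 1 value per group.

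**Figure D1:**
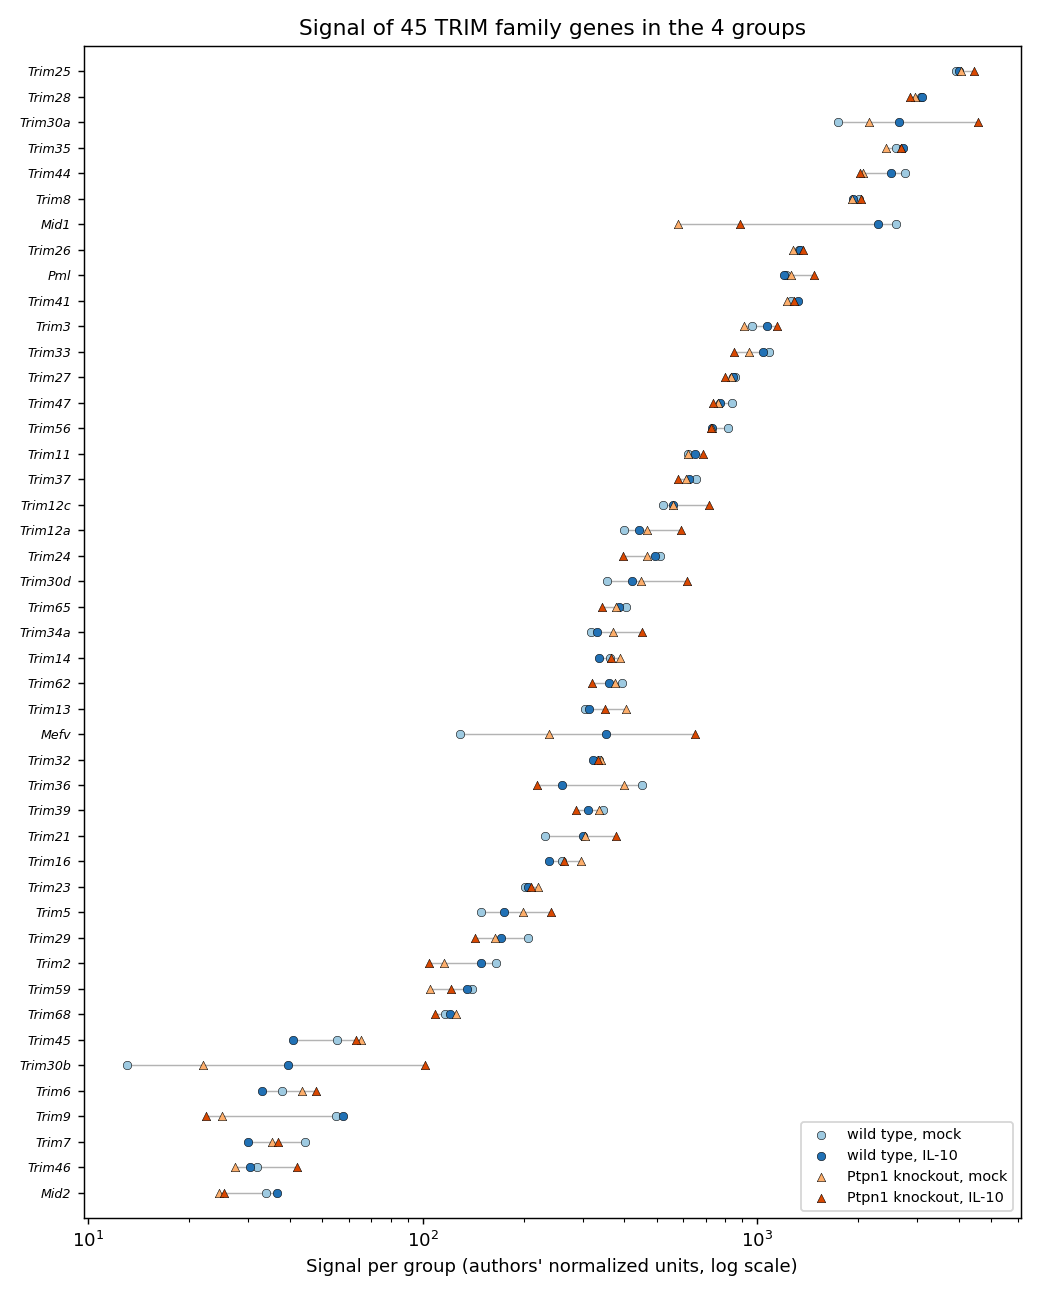
Normalised signal (x axis, authors' units, log scale) of the 45 genes, 1 gene per line and 1 point per group, with circles for the wild type and triangles for the knockout. Values are not divided by length, and most genes hold nearly the same place in all 4 groups, whereas Mid1 reads 2600 and 2290 units in the wild type and 580.5 and 887 units in the knockout.

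For 33 of the 45 genes the highest group value was less than 1.5-fold above the lowest. Among the genes with wider ranges, Mid1 and, at far lower signal, Trim2, Trim9 and Trim45 differed mainly by genotype. Trim36 differed by IL-10, and Mefv, Trim5, Trim21, Trim30a, Trim30b and Trim30d differed by both. Trim46, also low, was highest in knockout cells with IL-10. Both knockout values lay above both wild-type values in 13 members (28.9%), against 28.6% of all rows, and below them in 14 (31.1%), against 23.0%. Both IL-10 values lay above both mock values in 9 members (20%), against 15.4% of rows, and below them in 5 (11.1%), against 19.7%. Such an order of the 4 values is thus common in the table.

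Mid1 had the lowest ratio of all 11400 rows between knockout and wild type under mock treatment. Its row (ENSMUSG00000035299, mm9 chrX:166413191-166421906) read 2600 units in wild-type mock cells, 2290 with IL-10, 580.5 in knockout mock cells and 887 with IL-10. The knockout value was thus 4.48-fold lower under mock and 2.58-fold lower with IL-10, or -2.11 and -1.34 on the log2 scale. With IL-10 it ranked 3 from the lowest of the same rows. Mid1 was the 1 member of 45 (2.22%) that stood 2-fold lower in the knockout in either condition, against 0.105% of all rows under mock and 0.0789% with IL-10.

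The IL-10 values of Mid1 also went apart by genotype. The log2 ratio of IL-10 to mock was -0.18 in the wild type and 0.59 in the knockout, a difference of 0.77 that ranked 26 from the highest of 11400 rows. In the knockout the signal with IL-10 remained below both wild-type values. No member reached 2-fold in this difference between genotypes, where 0.0965% of rows were higher and 0.0351% lower.

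The Mid1 row covers 8716 bases, 2.72% of the 320538 bases that GENCODE M21 gives the gene. In C57BL/6 mice Mid1 lies across the boundary of the pseudoautosomal region of the X chromosome. Which exons supplied the reads cannot be read from the table, and the part of this position in the ratio was not tested. The 7 other X-linked genes near Mid1 that the table lists had median log2 ratios of 0.13 under mock and -0.05 with IL-10 between knockout and wild type. None of the 7 passed 1.5-fold in any of the 4 comparisons of groups. Ddx3y, a Y-linked gene, read 711.5, 802, 750.5 and 832 units in wild-type mock, wild-type IL-10, knockout mock and knockout IL-10 cells. None of 8 sex-linked genes passed 1.5-fold either. In these comparisons at most 2.32% of all rows were 1.5-fold higher and 1.40% lower, so such counts say little about 7 or 8 genes.

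Of 10 genes whose products act with MID1, none passed 1.5-fold in any comparison of 2 groups. In these comparisons at most 2.32% of all rows were that much higher and 1.40% lower, so the count says little about 10 genes. Their median log2 ratio between knockout and wild type was -0.00 under mock and -0.07 with IL-10. Ppp2ca, the PP2A catalytic subunit that MID1 targets, read 6493, 6777, 6556 and 7269.5 units in the same order of groups. Igbp1, the alpha4 protein that links MID1 to PP2A, read 925, 1018.5, 1207 and 1115.5 units.

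MID1 belongs to a class of TRIM proteins with a COS box, a fibronectin repeat and a PRY-SPRY domain, of which 5 were listed. All 5 had a log2 ratio below 0 between knockout and wild type under mock, with a median of -0.25, and 4 of 5 did with IL-10, with a median of -0.28. Over all rows 45.8% and 47.4% were below 0, and the medians were 0.02 and 0.01. The class medians are Mid2's own values, and Mid2 and Trim9 exceeded the level of the filter only in the wild type, where they are high.

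Trim9, a brain-enriched ligase of this class, read 55 units in wild-type mock cells, 57.5 with IL-10, 25 in knockout mock cells and 22.5 with IL-10. Both knockout values lay below both wild-type values, with log2 ratios of -0.66 and -0.78. With 0.25 ppm added in place of 1 the ratio with IL-10 was -1.14, past 2-fold. Mid2, the closest relative of Mid1, read 34, 36.5, 24.5 and 25.5 units, with log2 ratios of -0.25 and -0.28. Trim46, which organises microtubules in axons, read 32, 30.5, 27.5 and 42 units and had ratios of opposite sign in the 2 conditions, -0.12 and 0.26.

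Trim36, the last of the class and a microtubule-associated ligase, was the member that stood lowest with IL-10. It read 451 units in wild-type mock cells and 261 with IL-10, then 399 units in knockout mock cells and 220 with IL-10. Both IL-10 values lay below both mock values. The log2 ratios were -0.73 in the wild type and -0.79 in the knockout, rank 12 and rank 20 from the lowest of 11400 rows. Neither reached 2-fold, and no member stood 2-fold lower with IL-10 in either genotype, against 0.0175% of rows in each.

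**Figure D2:**
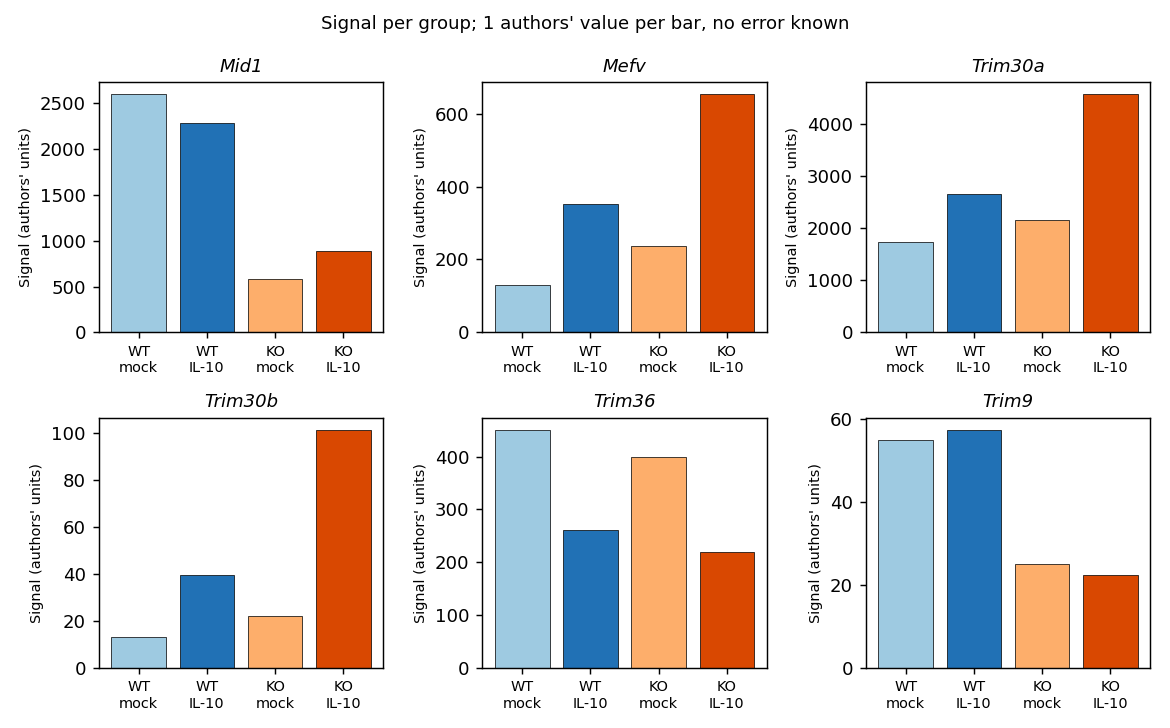
Normalised signal (y axis from 0, authors' units, its own scale per gene) of 6 members, each bar the authors' value of 1 group (WT, wild type; KO, Ptpn1 knockout) with no error known. Mid1 is lower in both knockout groups, Trim36 in both IL-10 groups, and Mefv and Trim30a are highest in knockout cells with IL-10.

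Mefv encodes pyrin, an inflammasome sensor that carries a B-box but no RING. It read 129 units in wild-type mock cells, 351.5 with IL-10, 238 in knockout mock cells and 653 with IL-10. Every IL-10 value lay above every mock value, and the knockout was above the wild type in each condition. The log2 ratio of IL-10 to mock was 1.28 in the wild type and 1.36 in the knockout, rank 33 and rank 60 from the highest, and the 2 differed by 0.08. With 4 ppm added, the wild-type ratio was 0.96, under 2-fold.

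Mefv was the only member 2-fold higher with IL-10 in the wild type, 1 of 45 (2.22%) against 0.465% of all rows. In the knockout 3 members reached 2-fold, namely Mefv, Trim30a and Trim30b, 6.67% of 45 against 0.877% of rows. Trim30b passed the filter only through the IL-10 groups, where it is high, so the count that does not rest on the filter is 2. Between genotypes Mefv stayed under 2-fold, at 0.77 under mock and 0.85 with IL-10. No member stood 2-fold higher in the knockout, against 0.325% of rows under mock and 0.596% with IL-10.

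Among 12 genes that act with pyrin, Il1b was 2-fold higher with IL-10 in both genotypes, against 0.465% and 0.877% of all rows. None was 2-fold lower with IL-10, against 0.0175% of rows in each genotype. Il1b, the cytokine released by inflammasomes, read 9.5, 48, 14 and 61 units in wild-type mock, wild-type IL-10, knockout mock and knockout IL-10 cells. Like Trim30b it was kept only through the IL-10 groups. Casp1, the protease that inflammasomes activate, read 1504, 2795, 2209 and 4247 units, the order seen for Mefv, with IL-10 log2 ratios of 0.88 and 0.93. Over the 12 genes the median IL-10 log2 ratio was -0.01 in the wild type and 0.03 in the knockout.

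The TRIM genes known to respond to interferon included 12 that the table lists: Mefv, Pml, Trim5, Trim12a, Trim12c, Trim14, Trim21, Trim25, Trim30a, Trim30b, Trim30d and Trim34a. All 12 had a log2 ratio above 0 between knockout and wild type in both conditions. That held for 40.6% of all rows. The list was chosen with earlier results of these data known, so the count is a description and gives no independent support. Their median ratio was 0.25 under mock and 0.41 with IL-10. Trim30b passed the filter only through its IL-10 groups, where it is high, so its part in the count and medians rests on the filter. The rest of the list stood above the level of the filter in every group. Of the 33 other members, 20 (60.6%) were below 0 in both conditions, against 34.5% of all rows, and their medians were -0.10 and -0.08.

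With IL-10 the median log2 ratio of these 12 genes was 0.17 in the wild type and 0.31 in the knockout, with 10 and 11 of them above 0, against 49.6% and 45.2% of all rows. Trim30b is in both counts, and it was kept only through the groups where it is high. The 33 other members had medians of -0.06 and -0.05. A wider list of 26 type I interferon response genes shares no member with the family. Its median ratios between knockout and wild type were 0.90 under mock and 1.29 with IL-10. Of the 26, 12 were 2-fold higher under mock, against 0.325% of all rows, and 19 with IL-10, against 0.596%. The 12 TRIM genes had smaller medians than that list. In neither condition was any of them 2-fold higher, which at such low shares of all rows says little about 12 genes.

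**Figure D3:**
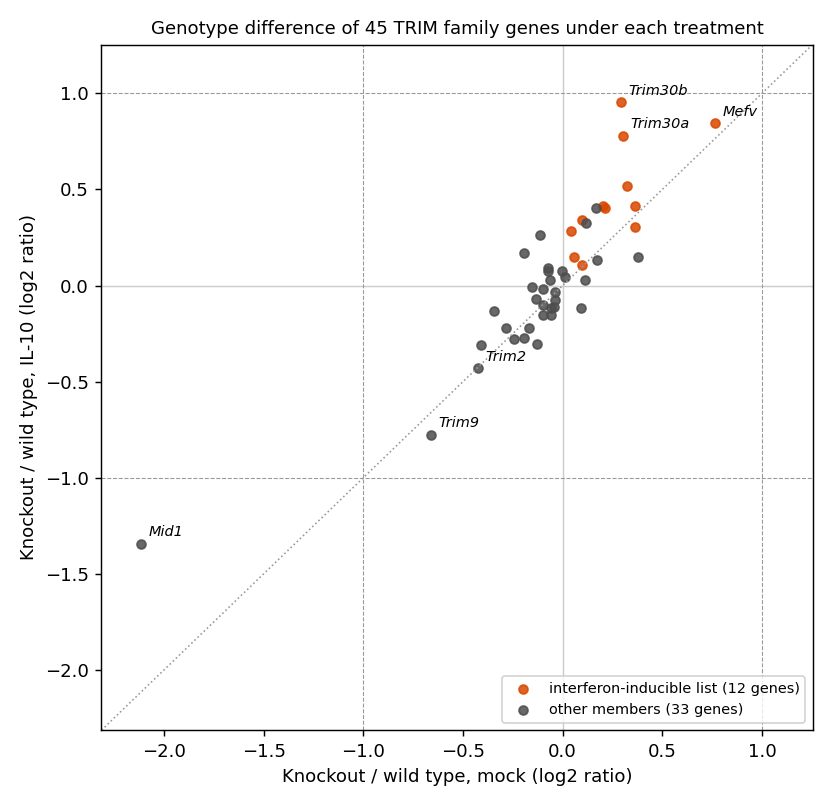
Log2 ratio of knockout to wild type under mock (x axis) against that with IL-10 (y axis), 1 point per member, with the interferon-inducible genes in orange and dashed lines at 2-fold. All 12 of these lie above 0 on both axes, though Trim30b was kept only through its IL-10 groups, where it is high. The list was chosen with earlier results of these data known. Mid1 stands alone at -2.11 and -1.34.

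Because 8 of the 11 interferon-inducible genes with an entry share a motif near their start, 100 bases around the start (70 before, 30 from it on) are shown for these 8 and for Trim30b and Mefv, which with Pml are the 3 whose entry holds no match. Trim30a has 2 starts in the table, and the one shown is upstream of the other, which also holds a match. The sequences are RefSeq's, of build GRCm38.p6, 5′ to 3′ on the gene's strand. Capitals mark matches of GAAANNGAA, the core of the interferon-stimulated response element, or of its reverse complement TTCNNTTTC.
Trim30a (chr7:104465164-104465263, minus strand): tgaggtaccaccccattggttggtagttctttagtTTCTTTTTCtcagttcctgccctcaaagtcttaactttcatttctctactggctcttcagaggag
Trim30d (chr7:104507820-104507919, minus strand): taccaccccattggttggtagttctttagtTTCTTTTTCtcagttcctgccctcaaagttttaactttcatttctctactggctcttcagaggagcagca
Trim5 (chr7:104288077-104288176, minus strand): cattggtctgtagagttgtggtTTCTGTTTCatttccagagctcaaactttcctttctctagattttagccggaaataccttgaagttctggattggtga
Trim12a (chr7:104315466-104315565, minus strand): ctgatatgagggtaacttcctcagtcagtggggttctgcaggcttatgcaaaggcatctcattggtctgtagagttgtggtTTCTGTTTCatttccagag
Trim12c (chr7:104353320-104353419, minus strand): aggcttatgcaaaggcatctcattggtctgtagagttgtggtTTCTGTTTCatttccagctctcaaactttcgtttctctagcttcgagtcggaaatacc
Trim34a (chr7:104244387-104244486, plus strand): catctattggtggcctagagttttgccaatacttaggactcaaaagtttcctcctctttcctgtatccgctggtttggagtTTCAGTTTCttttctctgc
Trim21 (chr7:102565453-102565552, minus strand): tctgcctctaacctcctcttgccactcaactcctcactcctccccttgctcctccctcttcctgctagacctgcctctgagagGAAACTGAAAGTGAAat
Trim25 (chr11:88999333-88999432, plus strand): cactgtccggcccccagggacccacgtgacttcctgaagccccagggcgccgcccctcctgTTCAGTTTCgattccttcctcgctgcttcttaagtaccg
Trim30b (chr7:104358617-104358716, minus strand): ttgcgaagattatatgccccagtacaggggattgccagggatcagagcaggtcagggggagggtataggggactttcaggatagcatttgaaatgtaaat
Mefv (chr16:3718095-3718194, minus strand): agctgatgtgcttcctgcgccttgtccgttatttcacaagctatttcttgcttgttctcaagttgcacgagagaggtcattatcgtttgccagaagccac
The searched window was longer, 300 bases from 250 before the start to 50 after it, and 35 of the 45 members had an entry. GAAANNGAA, on either strand, occurred in 11 of the 35 genes (31.4%), against 9.76% of the 27025 genes in the same promoter table. Of the interferon-inducible genes, 8 of 11 held it, and of the others 3 of 24, namely Trim2, Trim7 and Trim26. A stricter form with 1 more A after the last one was present in 9 of 35 genes (25.7%), against 3.99% of all genes. Trim5, Trim12a and Trim12c hold their match in sequence that they share, as do Trim30a and Trim30d. All of these counts therefore include related sequences more than once.

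In the printed windows the match begins 35 bases before the start in Trim30a, 40 before it in Trim30d, 48 before it in Trim5 and 28 before it in Trim12c. In Trim12a and Trim34a it begins at base 12 of the transcript, and in Trim21 at base 14, where 2 matches overlap. Trim25 has its match 9 bases before the start.

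The gamma-activated site TTCNNNGAA, either strand being the same, was found in 2 of the 35 genes, Trim45 and Trim46, against 9.55% of all genes. Its narrower form TTCCNGGAA, a STAT site, was in none of the 35, against 1.35% of all genes. Neither motif says whether a factor binds there. Mid1 has 3 starts in the table and none held any of these motifs.

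Trim30a and Trim30d share an identical run of 59 bases within the printed windows and of 118 within the 300-base promoters. Trim5 and Trim12a share a run of 241 bases in the promoters, and Trim12c shares 71 with each of them. The Trim30b window shares no more than 7 bases in a row with any of the 9 others.

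Of the chromosome 7 cluster, 8 genes lay within 288.421 kb (mm9 chr7:111367943-111656363): Trim6, Trim34a, Trim5, Trim12a, Trim12c, Trim30b, Trim30a and Trim30d. All 8 had a log2 ratio above 0 between knockout and wild type in both conditions, against 40.6% of all rows. The medians were 0.25 and 0.41. All but Trim6 are among the interferon-inducible genes counted above, so this count largely repeats theirs, and Trim30b was kept only through its IL-10 groups. With IL-10, 7 of 8 were above 0 in the wild type and 8 of 8 in the knockout, against 49.6% and 45.2% of all rows, with medians of 0.17 and 0.34. Reads of near-identical copies could be shared among them. Of the 50-base stretches of Trim5 transcripts 31.0% also occurred in transcripts of other members, and of Trim12c 28.7%, while Trim30d had 7.95%, Trim30a 6.53% and Trim12a 0.38%. The values of Trim5 and Trim12c taken singly are uncertain for this reason.

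Trim30a, which in mice restrains NF-kB signalling by targeting the TAB2 and TAB3 adaptors, had the highest wild-type mock signal of the cluster per kilobase, at 461 units per kb. It read 1738.5 units in wild-type mock cells, 2645.5 with IL-10, 2150.5 in knockout mock cells and 4563.5 with IL-10. The knockout IL-10 value stood well above the rest. The log2 ratio of IL-10 to mock was 0.60 in the wild type and 1.08 in the knockout, and that of knockout to wild type was 0.30 under mock and 0.78 with IL-10.

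Trim30b, a close relative of Trim30a of unclear role, read 13, 39.5, 22 and 101.5 units in wild-type mock, wild-type IL-10, knockout mock and knockout IL-10 cells. Only the IL-10 values reached the level of the filter, so the gene was kept because of the groups where it is high. Its IL-10 log2 ratios were 0.74 and 1.40, and with 4 ppm added the second was 0.69, under 2-fold. The genotype ratio with IL-10 was 0.95, and 1.23 with 0.25 ppm added. A second, overlapping row under the same symbol had 7, 20, 15 and 51 units and was not kept, and with both rows summed the same genotype ratio was 1.06. Trim30d read 355, 423, 450 and 618 units, again highest in knockout cells with IL-10, with genotype ratios of 0.32 and 0.52.

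The Trim5 and Trim12 genes are mouse relatives of the retroviral restriction factor TRIM5. Trim5 read 149, 174.5, 199.5 and 241 units. Trim12a read 399.5, 442, 466.5 and 592.5 units, and Trim12c 521.5, 560.5, 559 and 716.5 units. Each of these 3 genes was highest in knockout cells with IL-10, with genotype ratios between 0.34 and 0.41 in that condition. Trim34a read 317.5, 332.5, 370 and 451.5 units, on a row whose span is 519% of that of the annotated gene. Trim6, which makes free ubiquitin chains for antiviral kinase signalling, read 38, 33, 43.5 and 48 units, and its IL-10 ratio in the wild type, -0.12, was the only such ratio of the cluster below 0.

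Outside the cluster, Trim21, a cytosolic antibody receptor that sends antibody-coated virus to the proteasome, read 231, 301, 304.5 and 378 units. Its genotype ratios, 0.36 and 0.30, and its IL-10 ratios, 0.35 and 0.29, were all of similar size. Trim25, the ligase that modifies the RNA sensor RIG-I, moved little, at 3915.5, 4007, 4070.5 and 4450 units. Trim14, an adaptor without a RING that acts at mitochondrial MAVS, read 362, 336, 389 and 364.5 units. Pml, which builds nuclear bodies, read 1220, 1202.5, 1259 and 1471.5 units, so that only the knockout IL-10 value stood apart, at a genotype ratio of 0.29.

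Partners of these proteins are listed for comparison. Of 15 genes of the RIG-I and STING pathways, 1 was 2-fold higher with IL-10 in the knockout, against 0.877% of all rows. That gene was Nlrc5, a transactivator of MHC class I genes, which read 389, 784, 446 and 1187.5 units. No gene of the 15 was 2-fold different in the other comparisons of groups, where at most 0.596% of all rows were higher and 0.105% lower. Tmem173, the gene for STING, read 841, 1508, 1052 and 2090.5 units, with IL-10 ratios of 0.82 and 0.97. Dhx58, the RIG-I relative LGP2, read 394, 399, 490 and 710 units, and its genotype ratio with IL-10 was 0.79.

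Of 12 genes of PML nuclear bodies, none was 2-fold different in any comparison of groups. At most 0.877% of all rows were 2-fold higher and 0.105% lower in any of them. Sp100, a nuclear body component, read 1429, 1561, 1952 and 2404.5 units, with genotype ratios of 0.44 and 0.61.

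**Figure D4:**
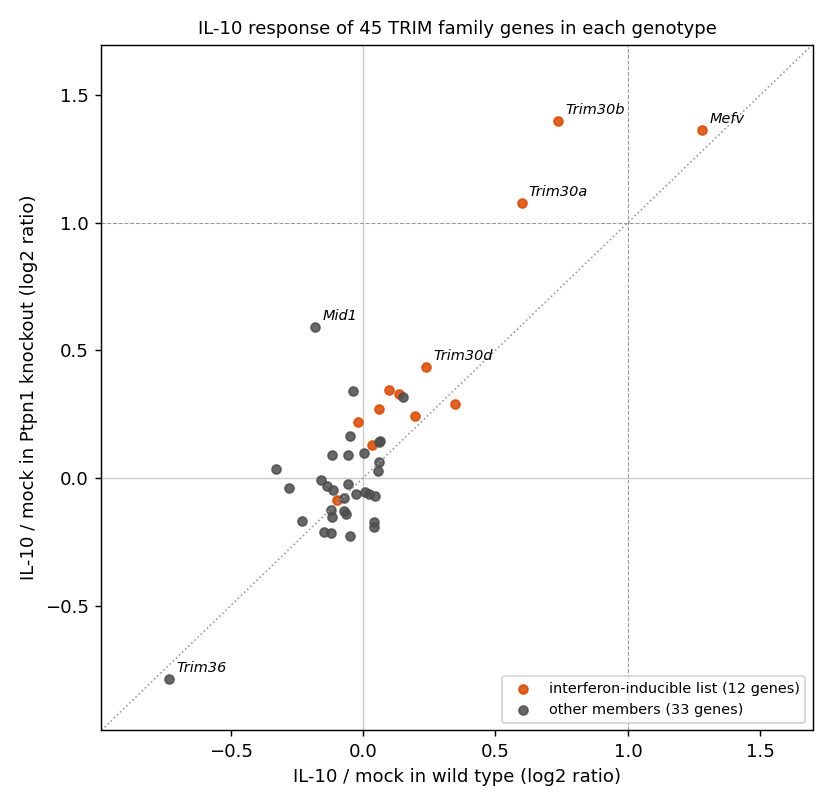
Log2 ratio of IL-10 to mock in the wild type (x axis) against that in the knockout (y axis), 1 point per member, with the interferon-inducible genes in orange and dashed lines at 2-fold. Mefv lies at 1.28 and 1.36, Trim36 at -0.73 and -0.79, and Mid1 at -0.18 and 0.59.

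The members with chromatin-reading PHD and bromodomains were all slightly lower in the knockout. Trim24, a coregulator of nuclear receptors, read 513, 495, 467.5 and 396 units. Trim33, which takes part in SMAD signalling, read 1083.5, 1036, 943 and 852 units. Trim28 read 3081, 3099, 2962.5 and 2853 units, a log2 ratio of -0.06 under mock and -0.12 with IL-10. Over the 3 genes the median was -0.13 under mock and -0.27 with IL-10. With a trend over transcript length subtracted, the medians were -0.09 and -0.15, and Trim33 stood at 0.01 under mock.

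The members of the NHL-repeat class bind RNA or motor proteins through those repeats. Trim2, a neuronal ligase, read 165, 149.5, 116 and 104 units, both knockout values lying below both wild-type values at ratios of -0.43 in each condition. Trim3, which binds actin-based motors, read 961, 1069.5, 911 and 1141 units, higher with IL-10 in both genotypes. Trim32, a ligase mutated in a limb-girdle muscular dystrophy, was among the genes that moved little.

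Trim44, which carries a zinc finger of deubiquitinases in place of a RING, read 2753, 2505, 2065 and 2020 units. Its genotype ratios were -0.41 and -0.31. Trim29, another member without a RING, read 205.5, 171, 164 and 143 units. Trim59, a membrane-anchored ligase, read 140.5, 135, 105 and 121 units, and Trim13, anchored in the endoplasmic reticulum, read 304.5, 314, 404 and 350.5 units. Both knockout values lay below both wild-type values in the first 3 genes and above them in Trim13, an order whose share among all rows is given above.

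The lowest of the remaining members had little signal, as had Trim9, Mid2 and Trim46 above, and little can be read from an order of values at that level. Trim45 read 55.5, 41, 65.5 and 63 units, both knockout values lying above both wild-type values. Trim7, a ligase that binds glycogenin, read 44.5, 30, 35.5 and 37 units.

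Another 19 members, all with a log2 range over the groups of at most 0.29, were Trim8, Trim11, Trim14, Trim16, Trim23, Trim25, Trim26, Trim27, Trim28, Trim32, Trim35, Trim37, Trim39, Trim41, Trim47, Trim56, Trim62, Trim65 and Trim68. Their group values ran from 109 to 4450 units. Their log2 ratios lay between -0.15 and 0.17 for knockout against wild type under mock, and between -0.16 and 0.15 with IL-10. For IL-10 against mock they lay between -0.16 and 0.07 in the wild type and between -0.21 and 0.14 in the knockout. Trim56, a modifier of STING, and Trim65, a ligase of the RNA sensor MDA5, are among them.

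Other properties moved with genotype. Over 11222 genes the Spearman correlation of transcript length with the log2 ratio of knockout to wild type was -0.53 under mock and -0.40 with IL-10, and over the 45 members it was -0.38 and -0.33. Genes are not independent replicates, and these values are descriptions. With a trend over length subtracted, Mid1 stood at -2.11 and -1.33 and the 12 interferon-inducible genes had medians of 0.25 and 0.39. The 33 others had -0.09 and -0.05.

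**Figure D5:**
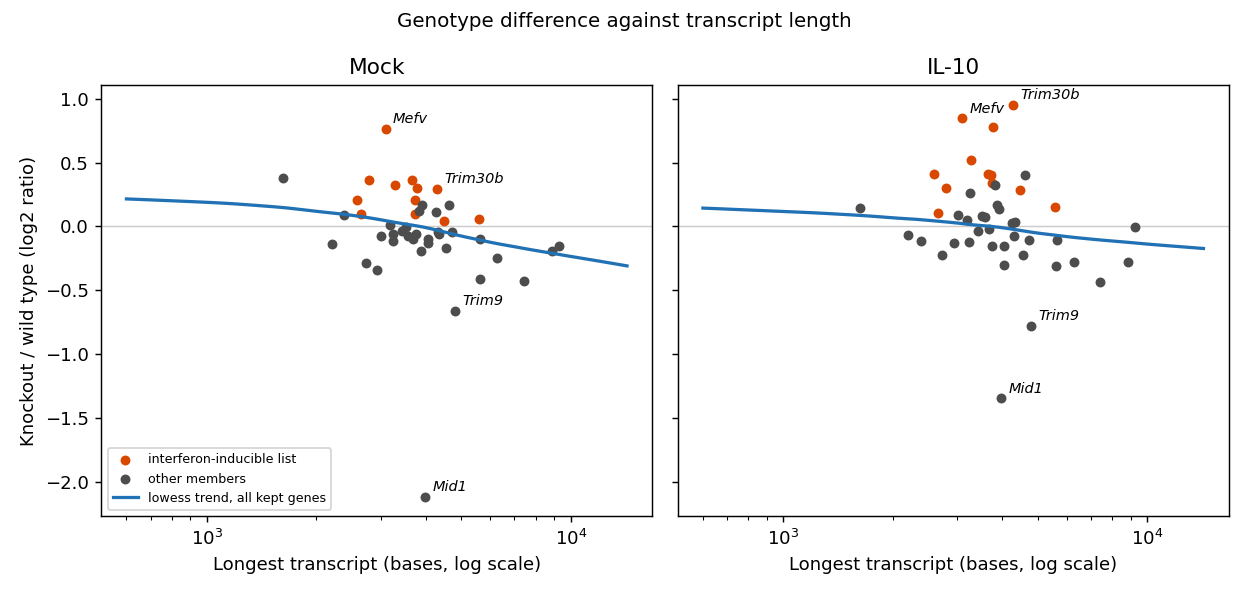
Log2 ratio of knockout to wild type (y axis) against length of the longest annotated transcript (x axis, bases, log scale) under mock (left) and with IL-10 (right), 1 point per member, with the line giving the lowess trend over all genes kept. The trend slopes down with length, and Mid1 lies far below it at -2.11 under mock and -1.34 with IL-10.

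The cells carried the macrophage transcripts of the label, with 9 markers listed. Between knockout and wild type under mock, 4 of the 9 were above 0 and 5 below, against 53.5% and 45.8% of all rows. Their median log2 ratio was -0.14. Their summed signal was 650564, 561200, 464988 and 469170 units in wild-type mock, wild-type IL-10, knockout mock and knockout IL-10 cells. Lyz2 alone, at 362618 units in wild-type mock and 136852 in knockout mock cells, differed by more than the sum did. The value 362618 is the highest in every group, and 8 rows share it in wild-type mock cells, so the size of the Lyz2 difference is uncertain. All 10 markers of mesothelial cells and fibroblasts had a log2 ratio below 0 under mock, against 45.8% of all rows. Their sums were 33912, 32537, 20458.5 and 20349.5 units. The 6 monocyte markers kept summed to 3130, 4056, 4341.5 and 5244 units. In each condition 5 of these 6 were over 1.5-fold higher in the knockout, the median log2 ratio being 0.74 under mock and 0.87 with IL-10. The 6 markers of resident peritoneal macrophages summed to 2584, 2867.5, 2765 and 2926.5 units. Of these 6, 4 were below 0 in each condition, against 45.8% and 47.4% of all rows, with medians of -0.63 and -0.43. Cxcl13 was at 0.88 and 0.73. None of these lists was at 0 in any group, and their part in the ratios of the TRIM genes was not tested. In bulk RNA fewer cells of a type and less RNA per cell cannot be told apart. Ptpn1 itself read 4960.5, 6736, 3836.5 and 5391.5 units, and the labels do not say which part of the gene is deleted.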

How the data were processed

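The data are RNA-seq of macrophages from 4 groups of 2 samples. The authors deposited 1 table with 1 value per gene and group, a normalised signal, per the file headers. Its name calls the values CPM, but the values are multiples of 0.5, the total is 26705598 in every column, and each group has the same highest value, 362618. The submitters' processing notes name RSEM, Bowtie and the mm9 build, giving neither versions nor roles. No depth per sample is known, and 0 value columns were left unmatched.

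Ratios were computed with Python 3.11.15, numpy 2.4.6 and pandas 2.3.3 as log2 of the values plus 1 ppm, for rows with a mean of at least 1 ppm. The log2 limit was 1. The ratio script was tested on simulated data with 200 changed genes. No fit for counts could be made, so no test was run. The members and lists were chosen with earlier results of these data known. Full values are given for Mid1, Mid2, Pml, Mefv, members past 2-fold and up to 20 others with the widest range. From each other list at most 3 genes with the largest ratio are named, except Ppp2ca, Igbp1, Ddx3y and the markers, which were chosen after their values were seen. Lengths are of the longest transcripts of GENCODE M21, and promoters are RefSeq's of GRCm38.p6. Other pseudocounts, filters, centring, a length trend, summed rows and a 1.5-fold limit were tried.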

Additional observations from a re-analysis of the deposited data

How the results depend on the processing

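No paired analysis was possible because the table gives 1 value per group, with no column for a sample, and for the same reason leave-one-out values were not run. Depth is unknown, which leaves no counting error for low genes such as Trim30b, Trim9, Mid2 and Trim46. No ratio past 2-fold changed sign under any setting tried, and Mid1 was past 2-fold lower in both conditions under each of them. Smaller ratios were less stable. With a trend over length subtracted, 6 of 45 members changed sign between genotypes under mock and 1 with IL-10. For IL-10 against mock, 5 did in the wild type and 2 in the knockout. The 12 interferon-inducible genes stayed above 0 between genotypes in both conditions.

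The counts of members past the limit were small and moved with it. Members higher with IL-10 in the wild type numbered 1, and 2 with a pseudocount of 0.25 ppm, 0 with 4 and 3 at a 1.5-fold limit, where 1 was lower. In the knockout 1 was lower with IL-10 at that limit. Between genotypes under mock, 1 was higher and 2 lower at 1.5-fold. With IL-10, 0 were higher, but 1 with 0.25 ppm (Trim30b), 1 with the rows of a symbol summed (Trim30b) and 3 at 1.5-fold, and 1 was lower, but 2 with 0.25 ppm (Mid1 and Trim9) and 2 at 1.5-fold. The difference between the genotypes' IL-10 ratios passed 1.5-fold upward for 2 members, Mid1 and Trim30b.

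Counts over all genes moved too. At 1.5-fold, 176 rows were higher and 47 lower with IL-10 in the wild type, 264 and 92 in the knockout, 163 and 160 between genotypes under mock, 205 and 113 with IL-10, and 57 and 30 for the difference. With 0.25 ppm, rows 2-fold lower with IL-10 numbered 6 in the wild type and 11 in the knockout (2 each in the main setting), rows higher in the knockout under mock 57 (37), rows lower with IL-10 19 (9), and the difference gave 19 higher and 11 lower (11 and 4). With 4 ppm the knockout had 1 row lower with IL-10, the genotypes under mock gave 18 higher and 5 lower, with IL-10 3 lower, and the difference 5 and 2. A filter at 5 ppm left 36 members, 1 row lower with IL-10 in the knockout, 6 and 5 rows lower between genotypes under mock and with IL-10, and 5 higher in the difference. With a trend over length subtracted, 2 rows were lower in the difference.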

Other observations

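The enzymes that work beside the TRIM ligases differed less than Mid1 or Mefv. Of 14 E2 enzymes used by RING ligases, 12 had a log2 ratio above 0 between knockout and wild type in each condition. Over all rows 53.5% were above 0 under mock and 51.8% with IL-10. The mock median of the 14 was 0.17 and the IL-10 median 0.12. None of them reached 2-fold between genotypes, where at most 0.596% of all rows were higher and 0.105% lower. Ube2l6, the E2 enzyme of the interferon-induced modifier ISG15, read 641 units in wild-type mock cells, 656 with IL-10, 940 in knockout mock cells and 1056 with IL-10, at ratios of 0.53 and 0.67. Of 44 other RING and HECT ubiquitin ligases none was 2-fold different. In each condition 22 (50%) were above 0 in the knockout, near the 53.5% and 51.8% of all rows. Their mock median was -0.01 and their IL-10 median 0.00. Of 12 genes that act with TRIM28 in silencing, 3 were above 0 in the knockout under mock and 4 with IL-10, against the same shares. Their medians were -0.09 and -0.12.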
